A study of Bos taurus with 9 samples.

Results

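The 500 largest clusters of H3K27ac peaks in the rumen of cattle were examined. The domains were chosen by the H3K27ac peaks themselves. H3K27ac peaks of the control and the butyrate library on chromosomes 1 to 29 were merged into 46284 regions, and regions at most 12500 bp apart were stitched into 15938 domains. The domains were ranked by the base pairs under merged regions, and the first 500 were kept, which is 3.14% of all stitched domains. They held 8754 merged regions, 18.9% of the total, and 3.87 of 18.0 Mb of merged base pairs (21.4%). All H3K27ac values below are therefore descriptions of what was selected. The H3K9ac, RNA polymerase II (RNA pol II) and H3K9me3 peaks took no part in the selection.

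Chromatin immunoprecipitation followed by sequencing (ChIP-seq) had been carried out on rumen tissue of Holstein cattle, taken before (control) and after butyrate. Per the methods of the study, butyrate was given by infusion, with sampling by rumen biopsy. The study states 24 h for butyrate on cultured cells and gives no time for the tissue. The rumen is the large fermentation chamber of the cattle stomach. For each condition there was 1 library for each of H3K27ac, H3K9ac, RNA pol II and H3K9me3, and 1 input library served all of them, which makes 9 libraries. How many animals stood behind a library is not given in the sources used here. Since each group was 1 library, the conditions could not be set against a spread between replicates, and no test was run. Intervals in parentheses are Wilson 95% intervals, which cover counting error only.

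Acetyl groups on lysine 27 of histone H3 (H3K27ac) mark active enhancers and promoters, and acetylation of lysine 9 (H3K9ac) is found mostly at active promoters. Enhancers often lie in clusters, and long clusters with much H3K27ac are known as super-enhancers or stretch enhancers, which tend to sit near genes that define a tissue. RNA pol II transcribes protein-coding genes and also enhancers, and H3K9me3 is a mark of silent heterochromatin. Butyrate is a short-chain fatty acid made by rumen microbes, a fuel of the rumen wall and an inhibitor of the histone deacetylases that remove acetyl groups. The lists analysed here give the place of each peak and no signal height, so the domains were ranked by length under peaks and are not called super-enhancers. Gene content and DNA sequence of the domains were not analysed here, because no genome of the build of the files (UMD3.1.1) was at hand.

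The control lists held 36963 H3K27ac, 4075 H3K9ac, 673 RNA pol II and 1536 H3K9me3 peaks on chromosomes 1 to 29, and the butyrate lists 32763, 4255, 1242 and 1710. The paper has a mapping summary of its data sets, but read numbers were not used here. The depth behind the lists was thus not compared between conditions and not corrected for. Per the labels, lane 1 carried the control and lane 3 the butyrate libraries of H3K27ac and H3K9ac, and lanes 3 and 4 those of H3K9me3. Lane and condition cannot be told apart for these antibodies, whereas both RNA pol II libraries were on lane 3.

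The domains ranged from 4695 to 28898 bp under merged regions, with a median of 6596 bp (quartiles 5489 and 8835 bp). Most were chains of many short regions. A domain held 5 to 62 regions (median 16) and spanned 6365 to 144247 bp (median 38.3 kb), of which a median of 19.1% lay under the regions. The widest region of a domain made up a median of 15.1% of its merged base pairs (range 5.16 to 59.1%). Between neighbouring regions of a domain there were 8254 gaps with a median of 803 bp. Of these gaps 54.8% were at most 1000 bp and 85.9% at most 5000 bp, so most neighbours lay far closer than the stitching distance. Regions inside the domains had a median width of 340 bp against 304 bp elsewhere, and 27.7% against 19.8% were wider than 500 bp.

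There was no step in size at the limit. The last 5 domains kept held 4705, 4702, 4701, 4698 and 4695 bp, and the first 5 not kept 4693, 4692, 4677, 4675 and 4674 bp. The next 500 domains, of rank 501 to 1000, held 3189 to 4693 bp with a median of 9 regions, and serve below as the class most like the domains.

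**Figure D1:**
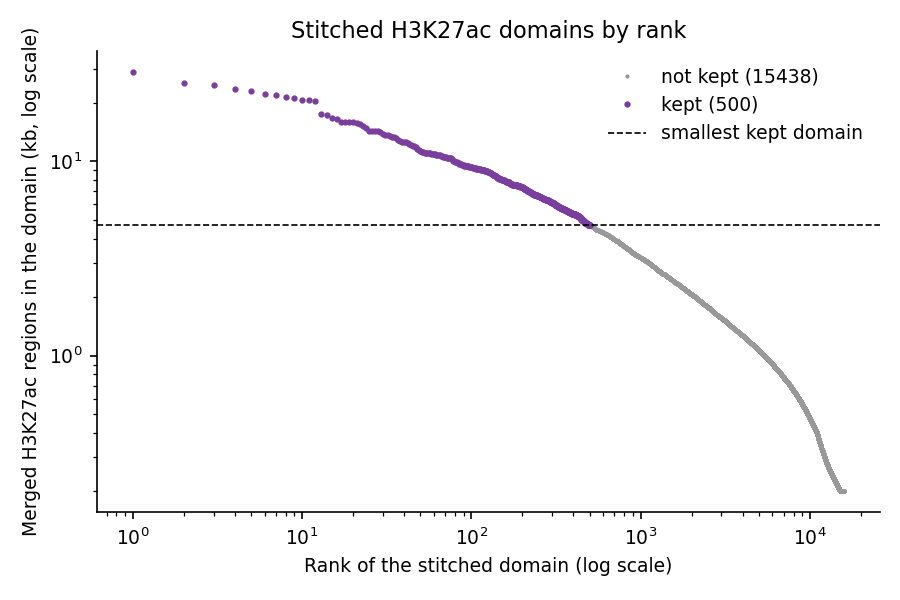
Base pairs under merged H3K27ac regions (kb, log scale) of all 15938 stitched domains against their rank (log scale), with the 500 kept domains in purple and the 15438 others in grey. The curve falls without a step through the dashed line at the smallest kept domain (4695 bp).

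The first domain by rank, at chr3:15630812-15744723 (UMD3.1.1, as are all positions), was also the one with the most regions. Its 62 regions covered 28898 bp of a span of 113.9 kb. H3K27ac peaks there covered 22521 bp in control and 19195 bp after butyrate, and 30 of the regions were found in both conditions, 19 in control alone and 13 after butyrate alone. H3K9ac had 6 peaks in control and 3 after butyrate, and RNA pol II had none in control and 1 after butyrate.

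The second domain, chr5:117010274-117151112, held 25376 bp in 44 regions, with 6 H3K9ac peaks in control and 9 after butyrate and no RNA pol II peak. The third, chr5:26111562-26197086, held 24644 bp, with 9 H3K9ac peaks in control and 6 after butyrate and 1 RNA pol II peak in each condition. The fourth, chr10:80643349-80787595, held 23582 bp and had the longest span of all, 144.2 kb. All of the first 10 domains carried H3K9ac in both conditions, from 4 to 9 peaks in control and 3 to 9 after butyrate. RNA pol II was found in 3 of these 10 domains in control (ranks 3, 6 and 7) and in 7 after butyrate (ranks 1, 3, 5, 6, 7, 9 and 10).

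The remaining domains among the first 10 were chr23:28018063-28115120 (22875 bp), chr3:20141032-20251464 (22153 bp), chr29:44240510-44338035 (21876 bp), chr10:85516839-85613938 (21497 bp), chr11:25505345-25590128 (21059 bp) and chr11:71287309-71367211 (20796 bp). Their H3K27ac log2 ratios of butyrate to control lay between -0.17 and 0.16, a narrow band. At the other end of the shape range was the domain with the widest single region, rank 462 at chr23:7230854-7239798. Its 5 regions spanned 8.95 kb, and 1 of them, chr23:7235713-7238610, covered 2898 of its 4904 bp.

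**Figure D2:**
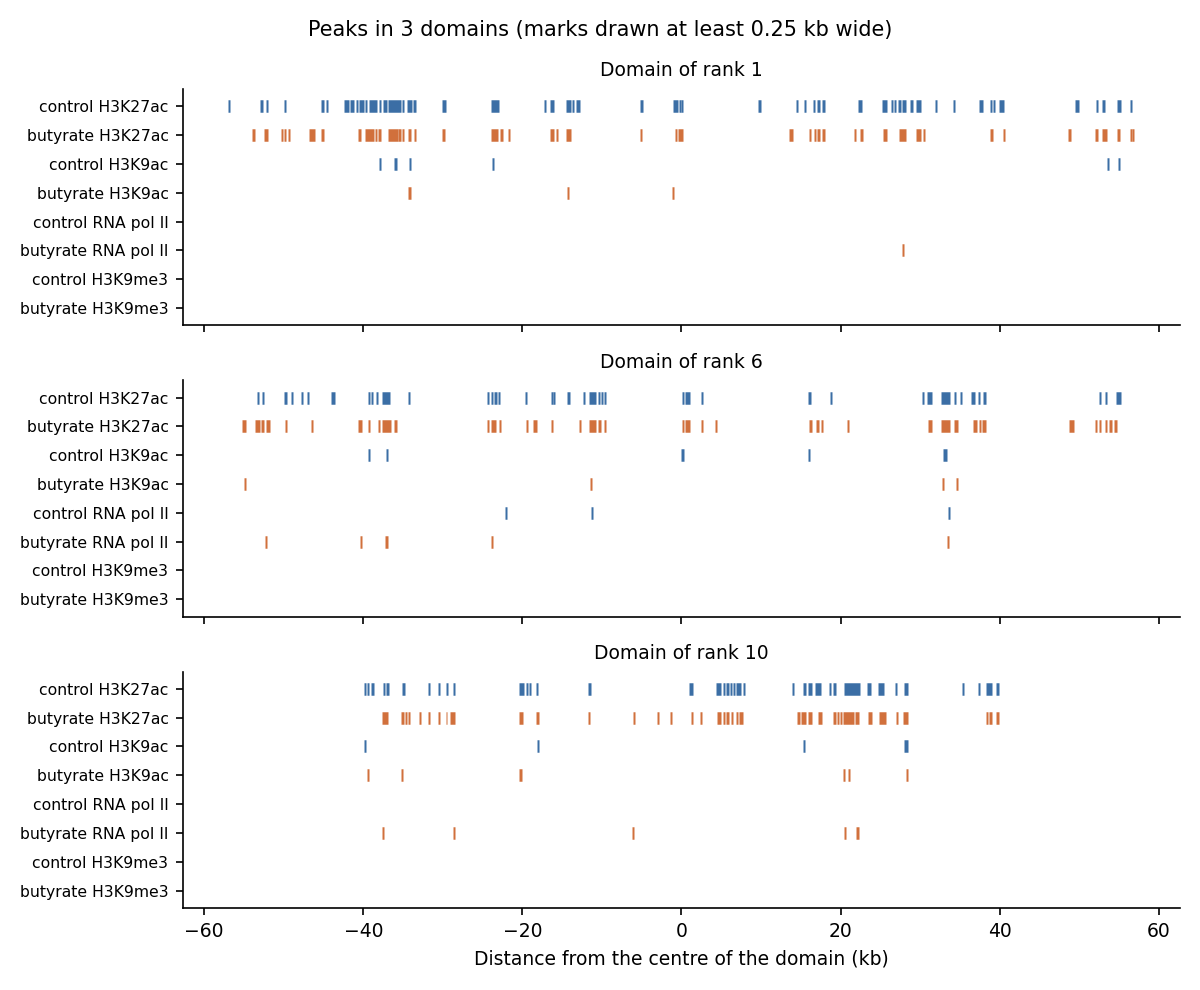
Peaks of the 8 lists in the domains of rank 1, 6 and 10, drawn by distance from the centre of the domain (kb), with control in blue and butyrate in orange. H3K27ac peaks lie in groups along each domain in both conditions with empty stretches between them, H3K9ac peaks are fewer, and the 5 RNA pol II peaks of rank 10 are all in the butyrate row.

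The domains were unevenly spread over the chromosomes. Chromosome 19 held 49 of them, 7.65 per 10 Mb and 9.80% of all domains, against 6.31% of all merged H3K27ac base pairs. Chromosomes 23, 18, 25 and 11 followed with 4.38, 4.24, 4.20 and 3.73 domains per 10 Mb. Counts per 10 Mb also reflect how many stitched domains a chromosome had. By the share of its stitched domains kept, chromosome 19 was first (6.49%, against 3.14% overall in the series) and chromosome 29 second (5.34%). Chromosomes 23, 11, 18 and 25 followed with 4.81%, 4.77%, 4.22% and 4.16%. Chromosome 27 held 1 domain (0.228 per 10 Mb) and chromosome 6 held 3 (0.251 per 10 Mb). Chromosome lengths were taken as the end of the last peak in any list. Neighbouring domains on a chromosome were a median of 1.03 Mb apart, and 15.5% of 471 neighbouring pairs lay within 100 kb of each other. Domains were found in 218 windows of 5 Mb, and the fullest window, chromosome 29 from 40 to 45 Mb, held 12. The seventh domain by rank is among these.

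The first comparison concerned H3K27ac itself before and after butyrate. The domains held 7255 H3K27ac peaks in control and 6738 after butyrate, a log2 ratio of -0.11 (-0.15 to -0.06), and the peaks covered 2.94 and 2.74 Mb (log2 ratio -0.10). In rank 501 to 1000 the log2 ratio of peak numbers was -0.12, and over all domains not kept it was -0.19 (-0.21 to -0.17). In bulk tissue, other proportions of cell types and other acetylation within cells cannot be told apart. The sign depends on which library builds the domains. Domains built from control peaks alone gave a log2 ratio of base pairs of -0.23, and domains built from butyrate peaks alone gave 0.078. Of the merged regions inside the domains 51.6% (50.5 to 52.6) were found in both conditions, 27.4% in control alone and 21.1% after butyrate alone. Outside the domains these shares were 44.3%, 32.9% and 22.8%.

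Domain by domain, the log2 ratio of H3K27ac base pairs ran from -1.36 to 1.24 with a median of -0.10 (quartiles -0.32 and 0.12). All 500 domains had H3K27ac peaks in both conditions. H3K27ac covered more base pairs after butyrate in 188 domains (37.6%), against 40.4% of all stitched domains. In 459 domains (91.8%) the difference was under 1.5-fold, against 43.7% of all stitched domains and 77.6% of rank 501 to 1000. A difference of at least 2-fold was found in 1 domain that was higher after butyrate (0.2%, against 14.9% of all stitched domains and 2.2% of rank 501 to 1000) and 4 that were lower (0.8%, against 27.8% of all and 3.6% of rank 501 to 1000). The shares over all stitched domains include the 31.9% with no H3K27ac peak in 1 of the conditions, of which there were none among the first 1000 by rank. Because the domains were selected on these base pairs and are long, these counts are given as a description.

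The highest log2 ratio belonged to rank 409, chr14:20935925-20959675, where H3K27ac went from 6 peaks and 2171 bp to 13 peaks and 5124 bp (log2 ratio 1.24). No region of this domain was found in control alone. Rank 487, chr1:95585136-95613637, went from 2143 to 3976 bp (0.89) and rank 138, chr15:82264401-82314661, from 4195 to 7452 bp (0.83). None of these 3 domains had more H3K9ac after butyrate, with 1 control peak at rank 409, 2 control peaks at rank 487, no peak at rank 138 and none after butyrate in any of them.

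The lowest log2 ratio belonged to rank 437, chr14:2313237-2354136, where H3K27ac went from 11 peaks and 5040 bp to 6 peaks and 1963 bp (-1.36). Rank 500, chr9:39257677-39306775, went from 3659 to 1610 bp (-1.18) and rank 442, chr16:1678662-1696714, from 4617 to 2061 bp (-1.16). The fourth domain past 2-fold, named after its value was seen, was rank 490 at chr5:55952485-55986621 with 3833 and 1882 bp (-1.03). The number of H3K9ac peaks did not go 1 way in these 4 domains, with 1, 2, 1 and 0 peaks after butyrate at ranks 437, 500, 442 and 490 against 0, 2, 2 and 1 in control. All 5 domains past 2-fold ranked 409 or later, among the smaller domains.

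**Figure D3:**
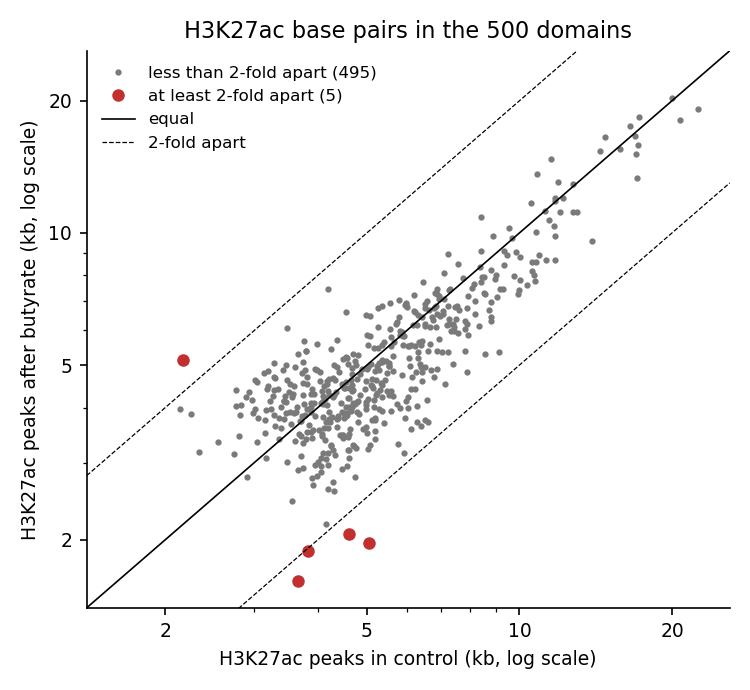
Base pairs under H3K27ac peaks (kb, log scales) in control and after butyrate for each of the 500 domains, with the line of equality and dashed lines at 2-fold. The 5 domains at least 2-fold apart, in red, lie at the lower left among the smaller domains.

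H3K9ac, which the selection did not use, was present in most of the domains in either condition. In control 402 of 500 domains (80.4%, 76.7 to 83.6) held an H3K9ac peak, against 18.1% of all stitched domains and 56.6% of rank 501 to 1000. After butyrate it was 387 domains (77.4%, against 18.4% of all and 61.8% of rank 501 to 1000). In total the domains held 917 H3K9ac peaks in control and 977 after butyrate, 22.5% and 23.0% of the H3K9ac peaks on chromosomes 1 to 29. The log2 ratio of these numbers was 0.09 (-0.04 to 0.22), an interval of counting error that holds no spread between libraries.

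The high share of domains with H3K9ac went with their length. Per 10 kb of merged H3K27ac regions the control list gave 2.34 H3K9ac peaks in the first 100 domains, 2.81 in ranks 401 to 500, 2.17 in ranks 501 to 1000 and 2.22 in ranks 4001 to 8000. After butyrate the same classes gave 2.64, 2.43, 2.38 and 2.39 peaks. A lower density, 1.34 and 1.33 peaks per 10 kb, was seen only in the last class, ranks 8001 to 15938. Across the 500 domains the Spearman correlation of merged base pairs with the number of H3K9ac peaks was 0.34 in control and 0.42 after butyrate, given as a description over domains that share the same libraries.

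**Figure D4:**
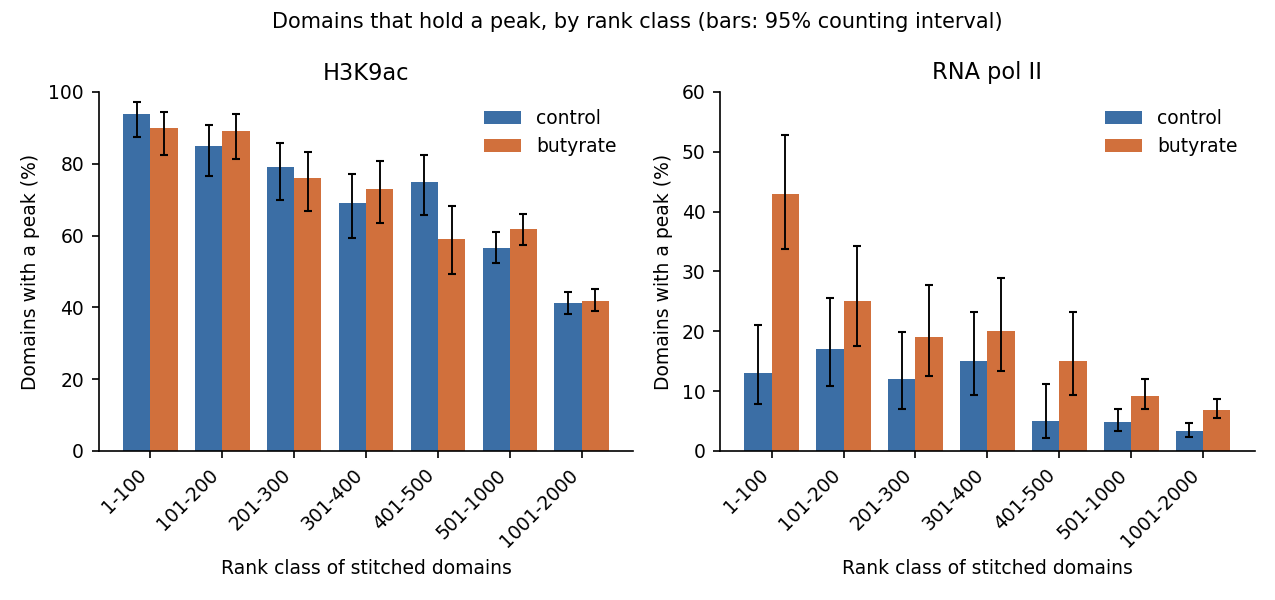
Share of stitched domains (%) that hold at least 1 H3K9ac peak (left) or RNA pol II peak (right) by rank class, in control (blue) and after butyrate (orange), with Wilson 95% intervals as bars. H3K9ac stands at 94% in control and 90% after butyrate in ranks 1 to 100 and at 41.1% and 41.9% in ranks 1001 to 2000, with classes in between that do not fall in strict order. RNA pol II stands at 13% in control and 43% after butyrate in ranks 1 to 100, and at 3.3% and 6.9% in ranks 1001 to 2000.

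At the level of single regions, the share under H3K9ac differed more between widths than between inside and outside the domains. Inside the domains 9.58% of regions (8.99 to 10.2) lay under control H3K9ac, against 7.37% outside, but regions outside weighted to the same mix of widths gave 9.44%. For the butyrate list the values were 10.1% (9.51 to 10.8) inside, 7.57% outside and 9.56% at the same mix of widths. Regions up to 300 bp wide were under control H3K9ac in 1.57% of cases inside and 1.62% outside, and those above 500 and up to 800 bp in 16% and 17.9%. In the class wider than 800 bp the share was 37.2% (34.1 to 40.4) inside against 32.3% (30.2 to 34.5) outside in control, and 37.0% (33.9 to 40.2) against 31.2% (29.1 to 33.3) after butyrate. In this class the regions inside were also wider, with a median of 1004 bp against 952 bp outside.

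H3K9ac was found mostly where H3K27ac recurred, both inside and outside the domains. Regions inside the domains with H3K27ac in both conditions lay under control H3K9ac in 16.7% of cases (15.7 to 17.9) and under butyrate H3K9ac in 17.6% (16.5 to 18.7). Regions with H3K27ac in control alone gave 1.88% and 2.13%, and regions with H3K27ac after butyrate alone 2.06% and 2.22%. A region with H3K27ac in 1 condition thus had about as much H3K9ac in the condition without H3K27ac as in the condition with it, within the counting intervals. The recurring regions were also wider, with a median of 502 bp against 248 bp for control alone and 251 bp for butyrate alone. Among regions inside the domains above 500 and up to 800 bp the shares under control H3K9ac were 17.2% (15.3 to 19.3) of 1390 recurring regions, 3.23% (1.10 to 9.06) of 93 in control alone and 8.47% (3.67 to 18.4) of 59 after butyrate alone. Outside the domains, recurring regions of all widths gave 14.6% under control and 14.7% under butyrate H3K9ac. Regions in control alone gave 1.52% and 1.85% there, and regions after butyrate alone 1.73% and 2.04%. Above 500 and up to 800 bp, the shares outside under control H3K9ac were 19.2%, 6.33% and 6.15% in that order.

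Most domains with H3K9ac held few such peaks. In control 149 domains held 1 peak, 121 held 2 and 132 held 3 or more, up to 9, and after butyrate 112, 126 and 149, up to 11. The peaks overlapped the widest region of their domain in 25.8% of cases in control (23.1 to 28.8) and 24.7% after butyrate (22.1 to 27.5), whereas the widest regions made up 15.2% of merged base pairs. Nearer to the centre of the domain than to either end lay 43.7% of control and 44.8% of butyrate H3K9ac peaks, against 45.1% of the merged regions. Nearly all of them (96.7% and 96.9%) overlapped a merged H3K27ac region.

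**Figure D5:**
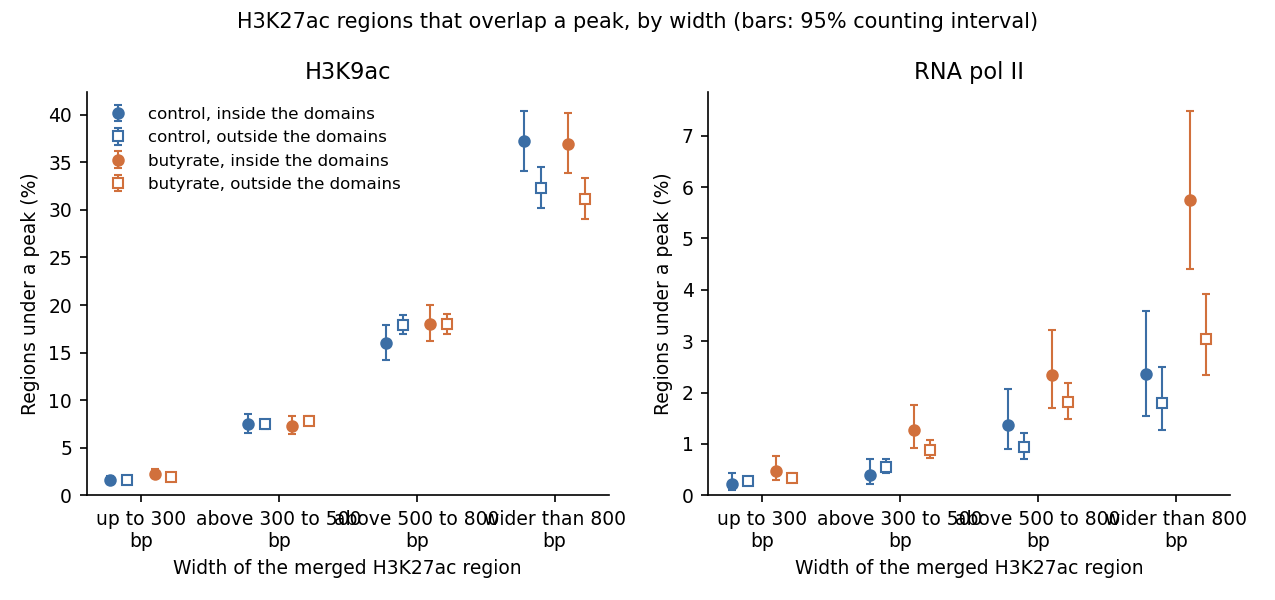
Share of merged H3K27ac regions (%) under an H3K9ac peak (left) or an RNA pol II peak (right) by width of the region, inside the domains (filled circles) and outside (open squares), with Wilson 95% intervals. H3K9ac climbs with width alike inside and outside up to 800 bp. For RNA pol II after butyrate the widest class stands at 5.75% inside and 3.04% outside.

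H3K9ac was present in both conditions in 328 domains (65.6%, against 9.52% of all stitched domains and 41.8% of rank 501 to 1000). With so many domains holding it in each condition, at least 289 (57.8%) had to hold it in both, so this count says little about whether H3K9ac persisted. It was present in control alone in 74 domains (14.8%, against 8.56% of all and 14.8% of rank 501 to 1000), after butyrate alone in 59 (11.8%, against 8.9% of all and 20% of rank 501 to 1000) and in neither in 39. Of the domains with any H3K9ac 71.1% (66.8 to 75.1) had it in both conditions, against 54.6% in rank 501 to 1000. Counted by single peaks the shares were lower. Of the control H3K9ac peaks inside the domains 36.4% (33.4 to 39.6) overlapped a butyrate H3K9ac peak, and of the butyrate peaks 34.4% (31.5 to 37.4) overlapped a control peak. In the other stitched domains these shares were 34.0% (32.3 to 35.8) and 32.8% (31.1 to 34.5), so the intervals overlap. In all, 88.3% of the control peaks and 89.6% of the butyrate peaks lay in a domain that held H3K9ac in the other condition.

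Peaks without a partner had other H3K9ac nearby. The median distance from such a peak to the nearest H3K9ac peak of the other condition was 6.15 kb for control and 6.41 kb for butyrate peaks inside the domains, against 65.9 and 70.1 kb in the other stitched domains, which are shorter. Of the 328 domains with H3K9ac in both conditions 217 (66.2%, 60.9 to 71.1) held at least 1 overlapping pair. Recurrence was higher for wider peaks, at 47.9% for control peaks wider than 300 bp and 30.8% for narrower ones. The number of H3K9ac peaks was higher after butyrate in 187 domains, lower in 173 and equal in 140, of which 39 had none.

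The domain with the most H3K9ac base pairs over both conditions was rank 50, chr5:104599292-104646659, with 8 H3K9ac peaks in control and 11 after butyrate, over 2595 and 3038 bp. Rank 225, chr19:43876557-43938928, held 8 and 9 peaks over 2069 and 3358 bp. Rank 23, chr22:21455650-21502038, went from 4 to 11 peaks and from 1569 to 3216 bp, while its H3K27ac was level at 11773 and 11807 bp.

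At the other end were 39 domains with no H3K9ac peak in either list. They had a median of 5699 merged bp and 16 regions, against 6709 bp and 16 regions for the domains with H3K9ac, and their widest regions were narrower (median 878 against 1104 bp). The highest rank among them was 91, chr21:47277395-47317666, chosen after its values were seen, with 9499 bp in 21 regions. H3K9ac is thus not called at every long H3K27ac cluster in these lists.

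Differences in H3K27ac and H3K9ac between the conditions were set side by side over the domains. The H3K27ac ratio is of base pairs used for the selection, and most domains held few H3K9ac peaks. The values below therefore cannot show whether the marks change together. The median log2 ratio of H3K27ac base pairs was -0.12 in domains with H3K9ac in both conditions, -0.02 in those with it in control alone, -0.20 in those with it after butyrate alone and 0.01 in those with none. The Spearman correlation of the H3K27ac log2 ratio with the difference in H3K9ac base pairs was -0.09 over 500 domains, and with the difference in RNA pol II base pairs -0.01.

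RNA pol II showed the largest difference between the conditions among the acetyl marks and the polymerase. The domains held 69 RNA pol II peaks in control and 157 after butyrate, a 2.28-fold difference (log2 ratio 1.19, 0.78 to 1.59). In the other stitched domains the numbers were 219 and 372, a 1.70-fold difference (log2 ratio 0.76, 0.52 to 1.00), and the intervals overlap. Outside all stitched domains there were 385 RNA pol II peaks in control and 713 after butyrate. RNA pol II peaks were thus more numerous after butyrate in all 3 places, also away from H3K27ac domains. The domains held 10.3% of control and 12.6% of butyrate RNA pol II peaks on chromosomes 1 to 29. These peaks were narrow, with medians of 231 bp in control and 216 bp after butyrate, close to the minimum peak width of 200 bp.

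By domain, 62 (12.4%, 9.80 to 15.6) held RNA pol II in control, against 1.68% of all stitched domains, and 122 (24.4%, 20.8 to 28.3) after butyrate, against 2.96% of all. The next class by rank had 4.80% and 9.20%. RNA pol II was found in both conditions in 30 domains (6.0%, against 0.527% of all stitched domains and 0.8% of the next class). It was found in control alone in 32 (6.4%, against 1.15% of all and 4.0% of the next class). After butyrate alone it was found in 92 (18.4%, against 2.43% of all and 8.4% of the next class). In neither condition was it found in 346. The number of RNA pol II peaks was higher after butyrate in 99 domains, lower in 33 and equal in 22 of the 154 domains with any. In the next class it was higher in 43 domains, lower in 21 and equal in 2 of those with any.

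Of the 5 classes of 100 domains, the first had the widest gap in shares between the conditions. In these, the domains with RNA pol II were 13 in control (13%, 7.76 to 21) and 43 after butyrate (43%, 33.7 to 52.8), with 16 and 66 peaks, a 4.13-fold difference (log2 ratio 2.04, 1.27 to 2.82). More peaks after butyrate were found in 37 of these 100 domains and fewer in 2. Ranks 101 to 200 had 17% and 25%, ranks 201 to 300 had 12% and 19%, ranks 301 to 400 had 15% and 20%, and ranks 401 to 500 had 5% and 15%. Per 10 kb of merged regions the first 100 domains held 0.122 RNA pol II peaks in control, within the range of all other rank classes (0.0996 to 0.264), and 0.502 after butyrate, above the range of the others (0.214 to 0.379). In the butyrate list the first 100 domains thus had the highest value of the rank classes also per length of merged regions. These densities carry no interval and rest on few peaks, 66 here and 19 in ranks 401 to 500. Ranks 6, 7 and 10 alone held 5, 4 and 5 of the 66 peaks. Widths of regions were not matched between the rank classes. Whether the rank classes differ was not tested, since peaks of 1 library are not replicates.

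The share of regions under RNA pol II was higher the wider the region. Of the regions inside the domains 0.697% (0.543 to 0.894) lay under control RNA pol II and 1.59% (1.35 to 1.87) under butyrate RNA pol II. Outside, at the same mix of widths, the shares were 0.633% and 1.04%. For regions wider than 800 bp the butyrate shares were 5.75% (4.40 to 7.48) inside and 3.04% (2.35 to 3.93) outside, and the control shares 2.37% (1.55 to 3.59) and 1.79% (1.28 to 2.51).

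Few RNA pol II peaks were at the same place in both lists. Inside the domains 14 of 69 control peaks (20.3%, 12.5 to 31.2) overlapped a butyrate RNA pol II peak, which is 14 of 157 butyrate peaks (8.92%, 5.39 to 14.4). In the other stitched domains the shares were 25.1% and 15.1%. Most of the peaks lay on the H3K27ac regions, 88.4% in control and 87.3% after butyrate, while 21.7% (13.6 to 32.8) and 24.2% (18.2 to 31.5) overlapped an H3K9ac peak of the same condition. Most RNA pol II peaks inside the domains thus did not themselves overlap an H3K9ac peak, though H3K9ac could lie elsewhere on the same region. The same held in the other stitched domains. There 90.9% of control and 85.8% of butyrate RNA pol II peaks lay on H3K27ac regions. On an H3K9ac peak of the same condition lay 31.5% (25.7 to 37.9) and 26.3% (22.1 to 31.0).

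Whether domains with H3K9ac also hold RNA pol II was examined by condition. In control RNA pol II was present in 11.9% (9.13 to 15.5) of the domains with H3K9ac and 14.3% (8.70 to 22.6) of those without, and after butyrate in 26.1% (22 to 30.7) and 18.6% (12.5 to 26.7). The intervals overlap in both conditions. Domains with H3K9ac are also longer (median 7000 against 5784 merged bp after butyrate), so the butyrate shares were also taken by rank. They were 32.9% (27 to 39.3) with H3K9ac and 19.4% (9.19 to 36.3) without in the first 250 domains, and 17.3% (12.3 to 23.7) and 18.3% (11.4 to 28.0) in the last 250.

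The domain of rank 6, chr3:20141032-20251464, was among the 3 with the most RNA pol II base pairs, with 3 peaks and 676 bp in control and 5 peaks and 1375 bp after butyrate. The control peaks lay at chr3:20174003-20174245, chr3:20184870-20185102 and chr3:20229757-20229956. The butyrate peaks lay at chr3:20143852-20144173, chr3:20155782-20156018, chr3:20158959-20159319, chr3:20172280-20172479 and chr3:20229659-20229913. The last of each list overlap, the others do not. All but the first control peak lay on an H3K27ac peak of their condition, and none of the 8 on an H3K9ac peak.

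Rank 225, also named for its H3K9ac, had 1 RNA pol II peak in control (291 bp) and 5 after butyrate (1284 bp). The control peak, chr19:43924173-43924463, overlapped the butyrate peak at chr19:43924180-43924495, and both lay on H3K9ac. Of the 4 further butyrate peaks 2 lay on H3K9ac. The third domain, rank 288 at chr17:53129451-53143245, went the other way, with 3 peaks and 1063 bp in control and 2 peaks and 443 bp after butyrate, in a span of 13.8 kb.

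Among the first 10 domains the largest difference was in rank 10, chr11:71287309-71367211, with no RNA pol II peak in control and 5 after butyrate (1289 bp). They lay at chr11:71289620-71289819, chr11:71298550-71298749, chr11:71320998-71321283, chr11:71347684-71347883 and chr11:71349172-71349574. Each lay on a butyrate H3K27ac peak and 1 of them on H3K9ac. H3K27ac in this domain was level, at 15810 and 15522 bp, and H3K9ac had 4 and 6 peaks.

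H3K9me3 was rare in the domains. Peaks numbered 5 in control and 18 after butyrate, in 5 domains (1.00%, against 0.533% of all stitched domains) and 17 domains (3.40%, 2.13 to 5.38, against 0.646% of all). In the other stitched domains there were 97 in each condition, and in rank 501 to 1000 there were 7 and 5. H3K9me3 was found in both conditions in 3 domains (0.6%, against 0.282% of all and 0.0% of rank 501 to 1000). It was found in control alone in 2 (0.4%, against 0.251% of all and 1.0% of rank 501 to 1000). After butyrate alone it was found in 14 (2.8%, against 0.364% of all and 1.0% of rank 501 to 1000). The counts are small, and the lanes of these libraries differ by condition.

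The 3 domains with H3K9me3 in both conditions were also the 3 with the most H3K9me3 base pairs, and in each the control and butyrate peak overlapped. Rank 43, chr14:2207084-2290669, held 238 bp in control and 675 bp after butyrate. Rank 194, chr23:48132428-48184495, held 506 and 500 bp, and rank 183, chr7:21703191-21757703, held 218 and 363 bp. Of the 18 butyrate peaks 11 lay on a merged H3K27ac region, 9 on a butyrate H3K27ac peak and 6 on a butyrate H3K9ac peak. Among the latter were chr19:43918785-43919061 in rank 225 and chr17:53142873-53143175 in rank 288. Butyrate H3K9me3 peaks also overlapped a butyrate RNA pol II peak in ranks 105, 183, 194, 211, 225 and 288. In rank 225 this was the RNA pol II peak at chr19:43918755-43919059. The H3K9me3 peak of rank 183 lay on no merged H3K27ac region and on no butyrate H3K9ac peak. Peaks of a silent mark and of active marks were thus called at the same place in these lists. The other stitched domains held such peaks too. Of their 97 butyrate H3K9me3 peaks 71.1% lay on a merged H3K27ac region. On a butyrate H3K27ac peak lay 38.1%, and on a butyrate H3K9ac peak 26.8%. Inside the domains these shares were 61.1%, 50% and 33.3% of only 18 peaks, and the counting intervals overlap for all 3.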

How the data were processed

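ChIP-seq of rumen tissue was analysed from 8 peak lists, 1 per antibody and condition, grouped by the labelled antibody and treatment. According to the methods of the study, the authors aligned reads with BWA to UMD3.1.1, kept unique reads with fewer than 2 mismatches and called peaks with MACS2 against the input, per library. Reads were 75 nt, single-end per the series text but paired-end per the methods. The submitters' processing notes also name Trim Galore 0.4.1. The deposited lists hold chromosome, start and end, with no score, signal or count. Start and end were read as 1-based, inclusive positions. Columns of other samples numbered 0.

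Merging, stitching and overlaps (at least 1 bp) were computed with Python 3.11.15, numpy 2.4.6 and pandas 2.3.3, were tested on simulated domains and checked against bedtools 2.31.1. A peak belonged to the domain it overlapped most. Spearman correlations were computed with scipy 1.17.1 and figures drawn with matplotlib 3.10.9. Shares have Wilson 95% intervals, and an interval of a log2 ratio of peak numbers comes from that of the butyrate share of the summed peaks. With 1 library per group no test was run.

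Named domains were the first 10 by rank, the last 5 kept and the first 5 not kept, the 3 with the highest and the 3 with the lowest H3K27ac log2 ratio, the 3 with the most base pairs of each other antibody, the one with the most regions and the one with the widest region. The members, classes and comparisons were chosen with earlier results of these data known. Alternatives to the stitching distance, ranking, number of domains, peak width, H3K27ac list and overlap were tried. Genes were not assigned, since the gene table at hand is of another assembly.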

Additional observations from a re-analysis of the deposited data

How the results depend on the processing

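Of 170 values under 9 alternatives to 20 results, 91 stayed within the counting interval of the reported value (for the count of domains, within 1.5 times), 77 moved and 2 changed sign. The 2 changes of sign were both with domains from butyrate H3K27ac peaks alone, where the log2 ratio of H3K27ac was 0.088 by peak number and 0.078 by base pairs. Domains from control peaks alone gave -0.24 and -0.23. More H3K27ac base pairs after butyrate were found in 44.4% of domains at a stitching distance of 5000 bp, 31.2% at 25000 bp, 32.4% when ranked by span, 31.6% of the first 250, 17.8% with control peaks alone and 60.4% with butyrate peaks alone. In the same order of settings, domains at least 2-fold apart numbered 9, 2, 28, 0, 11 and 11, and 34 of the first 1000.

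The share of domains with H3K9ac, in control and after butyrate, was 70.8% and 71.2% at 5000 bp, 86.2% and 86.8% at 25000 bp, 69.2% and 71.6% by span, 88.4% and 87.6% in the first 250 and 68.5% and 69.6% in the first 1000. For RNA pol II these shares were 8.60% and 18.6% at 5000 bp, 16.2% and 31.2% at 25000 bp, 20.4% after butyrate by span, 31.2% after butyrate in the first 250, and 8.60% and 16.8% in the first 1000. The butyrate share of RNA pol II was above the control share under all 8 alternatives to the domains. All of these use the same RNA pol II lists, and the butyrate list is the longer one (1242 against 673 peaks on chromosomes 1 to 29). The agreement between settings is therefore no independent evidence of a difference between the conditions. H3K9me3 was in no domain in control and 2.00% after butyrate at 5000 bp.

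Of all H3K9ac peaks the domains held, in control and after butyrate, 15.6% and 16.4% at 5000 bp, 29.9% and 31.5% at 25000 bp, 18.6% and 19.8% by span, 14.4% and 15.4% in the first 250, 32.7% and 33.7% in the first 1000, 21.0% and 21.0% with butyrate peaks alone and 20.8% of the control peaks with control peaks alone. For RNA pol II peaks these values were 7.13% and 8.53%, 14.0% and 16.3%, 7.88% and 10.8%, 5.94% and 8.70%, and 14.0% and 16.7% under the first 5 of these settings.

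Regions inside the domains under H3K9ac were, in control and after butyrate, 10.5% and 11.2% at 5000 bp, 8.49% and 9.31% by span, 11.1% and 12% with control peaks alone and 12.3% and 12.7% with butyrate peaks alone, and 8.87% in control at 25000 bp. Regions outside at the same mix of widths gave 10.6% and 10.7% at 5000 bp, 8.75% and 8.87% by span, 11.4% and 11.3% with control peaks alone, 12.2% and 12.3% with butyrate peaks alone, and 10.1% and 10.2% without H3K27ac peaks of 200 bp. The recurrence of H3K9ac peaks inside the domains stayed within its interval under all 9 alternatives, and an overlap of at least 50% of the shorter moved none of the 10 values it applies to.

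No paired analysis was possible because there was a single library in every group. The lists carry no depth or signal, so a peak near the threshold of the caller counts as much as a strong one, and signal below that threshold is not seen. Of the domains of the rule, 331 kept at least 50% of their merged base pairs with stitching at 5000 bp, 398 at 25000 bp and 332 when ranked by span.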

Other observations

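Stitched H3K27ac domains on the X chromosome were outside the ranking. By the same steps X held 432 stitched domains with a median of 392 merged bp, and 4 of them reached the 4695 bp of the smallest domain kept on chromosomes 1 to 29. The largest, chrX:15627174-15693750, held 8172 bp in 22 regions. H3K27ac peaks there covered 6510 bp in control and 5854 bp after butyrate, and H3K9ac had 2 peaks in control and 3 after butyrate. The second, chrX:138688747-138710628, held 6995 bp in 12 regions, with no H3K9ac peak in control and 4 after butyrate. No RNA pol II or H3K9me3 peak lay in either domain.

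Of the 500 domains 25 held neither H3K9ac nor RNA pol II in any list, with a median of 5628 merged bp in 15 regions. Both H3K9ac and RNA pol II were held in at least 1 condition by 140, with a median of 7538 bp in 17 regions. H3K9ac was in 461 domains and RNA pol II in 154, so most domains with RNA pol II had to hold both. These counts thus say little about whether H3K9ac and RNA pol II go together. The best-ranked domain without either was rank 148. In the 30 domains with RNA pol II in both conditions the median H3K27ac log2 ratio was 0.01, and in the 346 with none it was -0.11.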
